A study of Caenorhabditis elegans with 24 samples.

Results

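The cytochrome P450 genes of Caenorhabditis elegans carry gene symbols that begin with cyp-, followed by a family number, a subfamily letter and a gene number. Every row of the deposited expression table whose gene identifier maps to such a symbol was taken, which gave 74 genes among 21689. All 74 are annotated as protein coding. The filter on low values, a mean of at least 3 over all libraries, left 61 of the 74 genes for testing, against 14482 of all 21689 genes.

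Cytochrome P450 enzymes are haem-containing monooxygenases. They use molecular oxygen and electrons passed on from NADPH by a reductase to add an oxygen atom to small, mostly fat-soluble molecules. In animals some members act on compounds made by the body, such as steroids and fatty acids, and others make drugs, plant toxins and pollutants easier to conjugate and excrete. In C. elegans many members are expressed in the intestine, the main organ of digestion, fat storage and detoxification, and several are known as downstream genes of insulin-like signalling.

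RNA sequencing was done on whole C. elegans animals collected on the first day of adulthood after growth on OP-50-1 bacteria at 20 °C. The 24 libraries form 6 genotypes of 4 libraries, and each of 4 labelled batches holds 1 library of each genotype. The mutant alleles were mu86 of daf-16, e1370 of daf-2 and bon101 of htz-1, and the genotypes were daf-16;daf-2;htz-1, here the triple mutant, daf-2;htz-1, here the htz-1 double mutant, htz-1 alone, daf-16;daf-2, here the daf-16 double mutant, daf-2 alone, and wild type N2, here wt. The product of daf-2 is an insulin/IGF-1 receptor, that of daf-16 is the FOXO transcription factor which the receptor holds back, and that of htz-1 is the histone variant H2A.Z. The alleles are carried by the whole animal, and no source used gives the number of animals in a library. In whole animals, fewer cells that express a gene and less RNA per cell cannot be told apart.

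The deposited values are on a regularized log2 scale (rlog), on which 1 unit is a 2-fold difference and on which differences of low genes are pulled towards 0. Read totals and depth are unknown. A difference is given below as the mean of the first genotype minus the mean of the second, and "higher" or "lower" means an adjusted p (limma with Benjamini-Hochberg adjustment over 14482 genes) under 0.05. Where several libraries of a genotype are listed, they follow batches 1 to 4.

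The library labelled triple mutant 3 stood apart from the other 3 triple mutant libraries. The root mean square distance of its values from the mean of the others was 0.81, against 0.51 to 0.60 for the other 3 and 0.32 to 0.76 for the libraries of the other genotypes. Its value of mtl-1, a metallothionein gene known as a DAF-16 target, was 14.51, against 7.26 to 8.87 in the other triple mutant libraries, and its value of sod-3, another known target, was 7.23 against 2.15 to 3.40. The same library was high in several P450 genes described below. Some results that rest on the triple mutant are therefore given with and without it. Those given once include it unless stated otherwise. The transcript of daf-16 was at 8.47 to 9.72 in the triple mutant and 9.70 to 9.99 in the daf-16 double mutant, against 10.50 to 11.26 in wt. It was at 9.64 to 10.22 in htz-1 animals, 9.94 to 10.34 in the htz-1 double mutant and 10.23 to 10.48 in daf-2 animals. Triple mutant 3 was at 9.72, within the ranges of the daf-16 double mutant and of htz-1 animals. Whether this library carries daf-16(mu86) was not tested. The htz-1 transcript was at 10.62 to 11.70 in all 24 libraries, and whether its gene-level value comes from outside the altered part of htz-1(bon101) was not tested. Libraries correlated at 0.949 to 0.991 within a genotype and at 0.781 to 0.984 between genotypes.

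The 74 genes are spread unevenly over the genome (WBcel235, Ensembl release 115). Chromosome V holds 41 of them, II holds 12, IV and X hold 7 each, III holds 6 and I holds 1. With the starts of neighbouring members at most 20 kb apart, 45 of the 74 lie in 11 runs of neighbours and 29 lie alone. The largest run, at V:3936326-3972991, holds 10 genes of families 34A and 35 (cyp-35A5, cyp-35B1 to cyp-35B3 and cyp-34A5 to cyp-34A10). A run of 8 genes at II:9779181-9807569 holds cyp-13A1 to cyp-13A8. Other runs hold cyp-25A1 to cyp-25A4 at III:3832591-3852080, cyp-14A1 to cyp-14A4 at X:13265041-13284197, and 2 groups with cyp-33C genes at V:2179514-2204400 and V:2236140-2252591. Neighbours of 1 subfamily are similar in sequence, and no source used describes how reads shared between them were split, so a value of 1 neighbour may hold reads of another.

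Divided by transcript length, the highest levels in wt were those of cyp-14A5 at 10.07 ± 0.57 and cyp-31A2 at 9.47 ± 0.20 on the log2 scale per kilobase (SD, n = 4), followed by cyp-33C8 at 9.42 ± 1.41 and cyp-31A3 at 9.29 ± 0.12. These 4 genes do not differ beyond their spread as neighbours in the order. cyp-13A11 at 1.68 ± 0.56, cyp-35B2 at 1.50 ± 0.87 and cyp-37B1 at 0.88 ± 0.04 were among the lowest. The spread between libraries of 1 genotype, pooled over the 6 genotypes, had a median SD of 0.46 over the 61 genes, with a range of 0.18 to 1.33, and 0.39 over all genes tested.

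**Figure D1:**
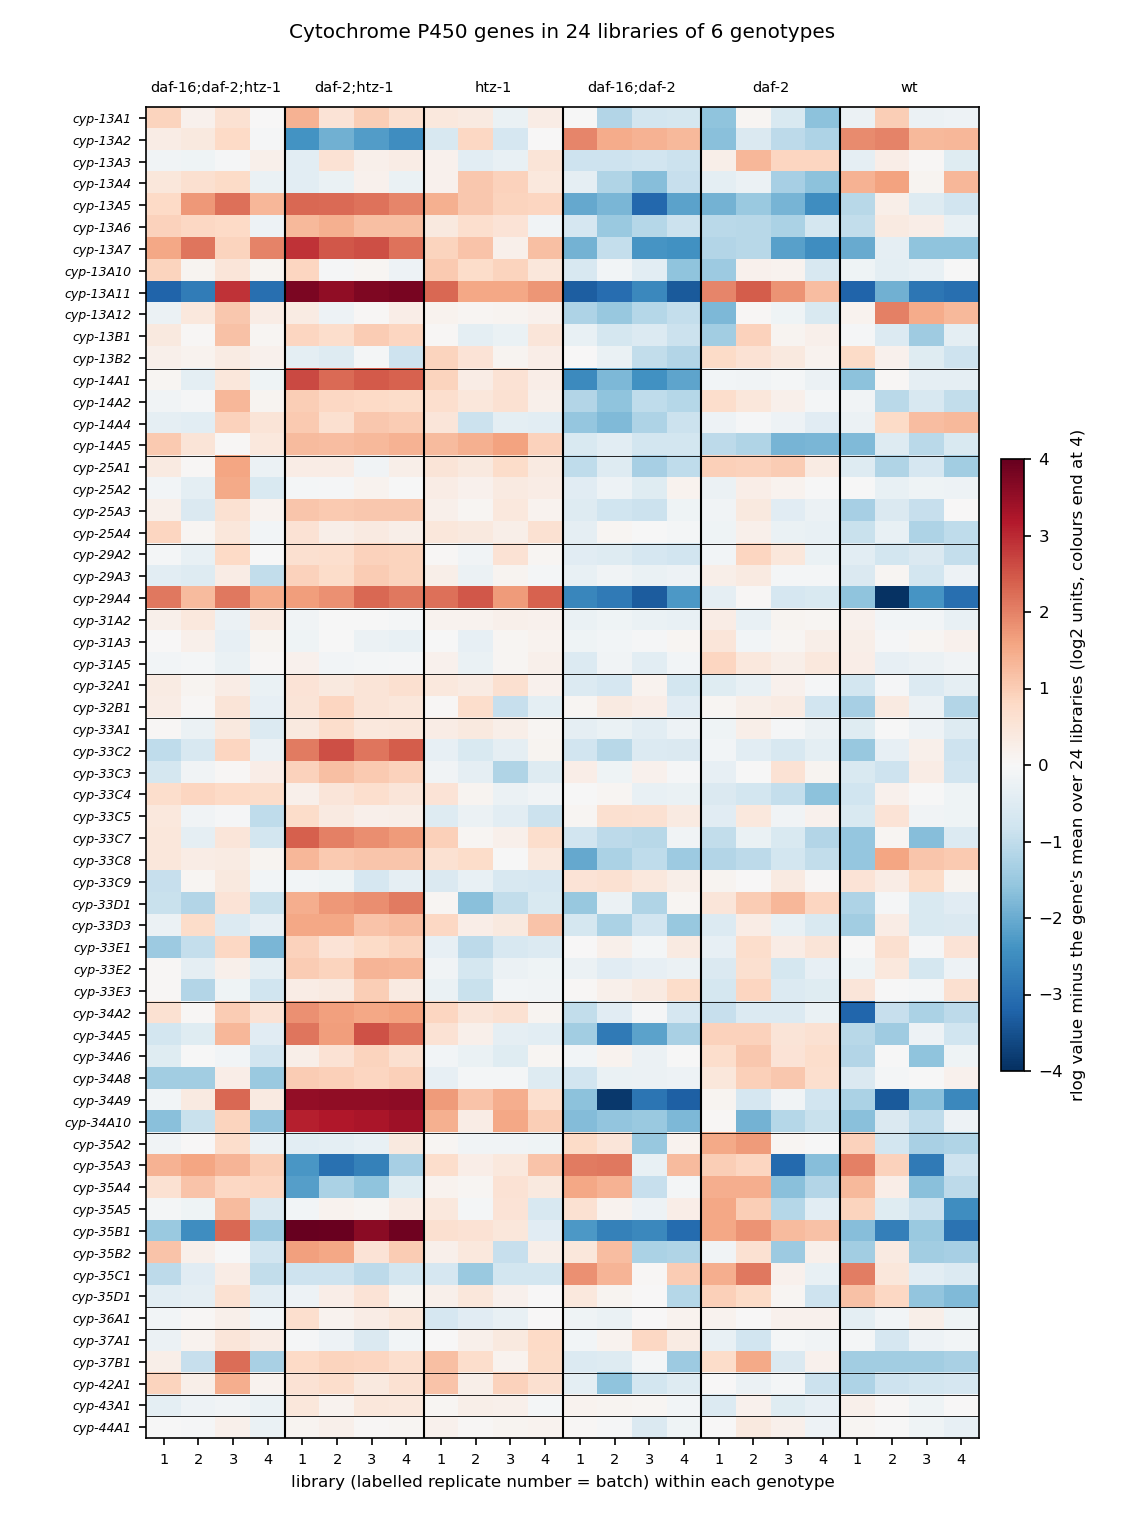
Values of the 61 tested P450 genes (rows, by family) in the 24 libraries (columns, by genotype), each shown as the library's rlog value minus the gene's mean over all libraries in log2 units, with the colour scale ending at 4 in both directions. In 5 of the 6 tested genes of family 34 and several genes of families 13 and 33 the mean is highest in the daf-2;htz-1 libraries, and the library labelled triple mutant 3 differs in colour from the other 3 triple mutant libraries in rows such as cyp-13A11 and cyp-35B1.

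The daf-2 comparison asks how reduced insulin-like signalling changes gene expression. In daf-2 animals 16 of the 61 genes were higher than in wt and 6 were lower, which is 26.2% and 9.84% of the tested members. Over all genes 6.43% were called higher, 5.95% lower and 12.4% either way. The median difference was 0.29 over the members and -0.03 over all genes. The genes that rose most were cyp-13A11, cyp-35B1 and cyp-29A4, and those that fell most were cyp-13A2 and cyp-13A4.

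cyp-13A11 (III:13021006-13024045, plus strand, 6 exons) had values of 7.12, 7.61, 6.97 and 6.39 in daf-2 animals, against 1.97, 3.23, 2.28 and 2.14 in wt. The groups did not overlap, and the difference was 4.61 ± 0.79 (SE, adjusted p = 0.000237). This SE includes the spread within the triple mutant, where the SD was 2.96, against 0.50 in daf-2 animals and 0.56 in wt. cyp-35B1 (V:3939032-3941237, plus strand, 5 exons), known as dod-13 for being downstream of DAF-16, had 7.05, 7.33, 6.78 and 6.70 in daf-2 animals, against 3.83, 2.79, 4.03 and 2.56 in wt. Every daf-2 library was above every wt library, with a difference of 3.66 ± 0.61 (adjusted p = 0.00017). An RNA gene, K07C6.16, is annotated on the opposite strand of cyp-35B1, and a library made with the SMART-Seq2 protocol does not mark the strand. cyp-29A4 (V:9654755-9658120) had 5.88, 6.29, 5.57 and 5.64 in daf-2 animals, against 4.66, 2.31, 3.88 and 3.25 in wt, without overlap (2.32 ± 0.36, adjusted p = 7.23e-05). cyp-34A9, known as dod-16 and a neighbour of cyp-35B1 in the largest run, had 7.90, 7.12, 7.66 and 7.03 in daf-2 animals, against 6.55, 4.44, 6.14 and 5.23 in wt. It was higher by 1.84 ± 0.47 (adjusted p = 0.00956), again without overlap.

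Among the other genes that rose in daf-2 animals were cyp-25A1 (1.75, adjusted p = 0.000115), cyp-34A5 (1.62, adjusted p = 0.00803) and cyp-34A6 (1.50, adjusted p = 0.00116), with differences in log2 units. cyp-37B1 rose by 1.83 (adjusted p = 0.0215), and this call ended without daf-2 replicate 1 or 2. Its mean over all libraries was 3.05, just over the filter of 3. Its means were 3.51 in daf-2 animals, 3.74 in htz-1 animals and 3.85 in the htz-1 double mutant, against 1.68 in wt. The daf-2 values of cyp-37B1 thus helped to bring it over the filter. cyp-35A2, a xenobiotic-inducible gene linked to fat content, rose by 1.41 (adjusted p = 0.0455) with overlapping groups, and the call ended when daf-2 replicate 1 or 2 or wt replicate 2, 3 or 4 was left out.

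The fall was clearest for cyp-13A2 (II:9783384-9787629, minus strand, 5 exons). Its values were 4.95, 6.04, 5.57 and 5.41 in daf-2 animals, against 8.52, 8.61, 7.91 and 7.96 in wt. The groups were separate, and the difference was -2.76 ± 0.30 (adjusted p = 5.43e-07). cyp-13A4 (-2.01, adjusted p = 0.000578), cyp-13A12 (-1.87, adjusted p = 0.00082) and cyp-13A5 (-1.39, adjusted p = 0.0036) were lower too, each without overlap. cyp-13A12 is known for a role in the behavioural response to reoxygenation. cyp-33C8 was lower in the mean of daf-2 animals (-1.53, adjusted p = 0.0105), but the wt library of batch 1 was at 8.08, below all daf-2 libraries, and the call ended without wt replicate 2. So within family 13 the changes went both ways: 2 of 12 tested genes rose and 4 fell.

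Removing daf-16 from daf-2 animals asks which differences need the FOXO factor. In the daf-16 double mutant 4 of the 61 genes were higher than in daf-2 animals and 16 were lower, which is 6.56% and 26.2%. Over all genes 16% were called higher, 9.65% lower and 25.7% either way. The median difference was -0.29 over the members and 0.03 over all genes. This comparison shares the daf-2 libraries with the one before, so the values are set side by side and not correlated.

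cyp-13A11 had 1.88, 2.14, 2.58 and 1.81 in the daf-16 double mutant, against the daf-2 values of 6.39 to 7.61 given above, a difference of -4.92 ± 0.79 (adjusted p = 7.45e-05). cyp-35B1 had 3.23, 2.81, 2.95 and 2.44 in the daf-16 double mutant, against 6.70 to 7.33 in daf-2 animals (-4.11 ± 0.61, adjusted p = 2.65e-05). Neither gene's groups overlapped, and both genes were near their wt values in the daf-16 double mutant. cyp-34A5 (-2.65, adjusted p = 3.54e-05), cyp-34A9 (-2.55, adjusted p = 0.000319), cyp-29A4 (-2.36, adjusted p = 3.53e-05) and cyp-14A1 (-2.08, adjusted p = 3.35e-06) were lower as well. cyp-14A1 did not pass the test between daf-2 animals and wt. cyp-13A2 went the other way. It had 8.57, 8.12, 8.01 and 7.94 in the daf-16 double mutant, against 4.95 to 6.04 in daf-2 animals, which put every daf-16 double mutant library above every daf-2 library (2.66 ± 0.30, adjusted p = 5.86e-07). cyp-14A5 (0.86, adjusted p = 0.0114) and cyp-33C4 (0.84, adjusted p = 0.00896) were higher without overlap. The call of cyp-37A1 as higher (0.62, adjusted p = 0.0466) ended when daf-2 replicate 1 or 2 or daf-16 double mutant replicate 2, 3 or 4 was left out.

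Marker genes of several tissues moved in these comparisons as well, where 12.4% and 25.7% of all genes were called either way. The mean of 13 tested intestinal markers was at 10.36 to 10.70 in daf-2 animals, against 10.99 to 11.51 in wt, and 7 of the 13 were lower and 0 higher. In the daf-16 double mutant the mean was at 11.41 to 11.92 and 10 of the 13 were higher than in daf-2 animals. In these comparisons the called intestinal markers and most called P450 genes went opposite ways, and whether they are related was not tested. In the htz-1 double mutant against daf-2 animals, with 27 P450 genes higher and 5 lower, 4 intestinal markers were higher and 5 lower. Of 20 sperm genes 0 were higher and 3 lower in daf-2 animals than in wt, and 10 were higher and 0 lower in the daf-16 double mutant than in daf-2 animals. Of 8 muscle markers 2 were lower in daf-2 animals and 4 were higher in the daf-16 double mutant, of 16 oocyte and germline markers 0 and 3 lower, and of 9 embryo markers 1 was higher and then 1 lower. Of 12 hypodermal markers 0 were called in either comparison. The part of the markers in the P450 differences was not tested.

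**Figure D2:**
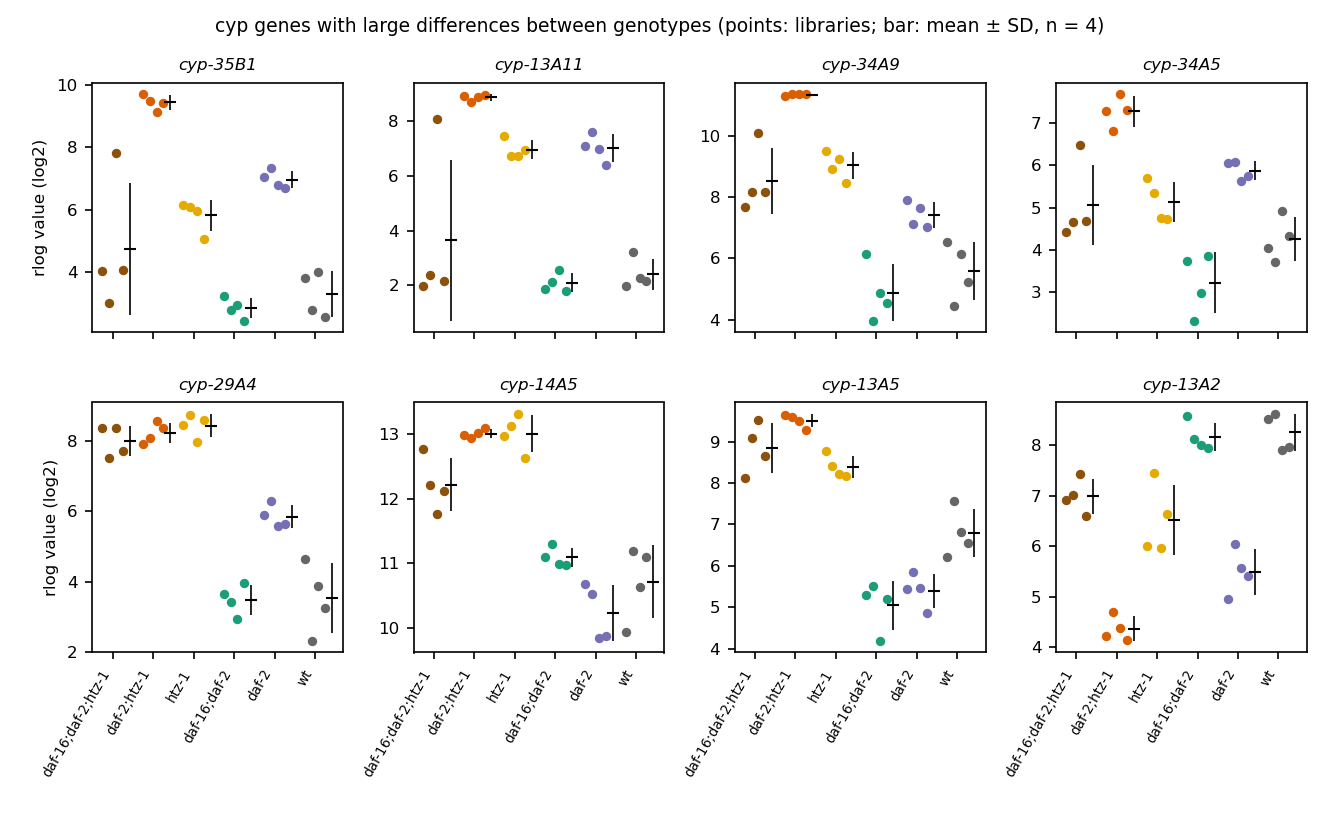
rlog values (log2 scale, vertical axis) of 8 P450 genes in every library (points) by genotype, with bars at the mean ± SD (n = 4). cyp-35B1 and cyp-13A11 are higher in daf-2;htz-1, htz-1 and daf-2 libraries than in daf-16;daf-2 and wt libraries, cyp-13A2 is lowest in daf-2;htz-1 libraries, and the single high point of cyp-13A11 in the triple mutant, at 8.07, is replicate 3.

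The same steps were compared in animals that carry htz-1(bon101). The htz-1 double mutant against htz-1 animals had 21 of 61 genes higher and 3 lower, or 34.4% and 4.92%, where over all genes 11.5% were called higher, 8.04% lower and 19.6% either way. Its median difference was 0.64 over the members and 0.03 over all genes. The triple mutant against the htz-1 double mutant had 3 genes higher and 23 lower, or 4.92% and 37.7%, where over all genes 12.8% were called higher, 17.4% lower and 30.2% either way. Here the median was -0.57 over the members and -0.06 over all genes. Without triple mutant 3 there were 4 higher and 26 lower.

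Markers moved in these comparisons too, and their part was not tested. In the htz-1 double mutant against htz-1 animals, 8 of 20 sperm genes were higher and 0 lower, 1 of 9 embryo markers was higher and 4 lower, 3 of 13 intestinal markers were higher and 4 lower, and 3 of 12 hypodermal markers were lower. In the triple mutant against the htz-1 double mutant, 9 sperm genes were lower and 0 higher (6 lower without triple mutant 3), 5 embryo markers were higher and 1 lower (4 and 1), and 6 intestinal markers were higher and 2 lower (7 and 2). There 3 hypodermal markers were higher and 0 lower, and 4 of 16 oocyte and germline markers were higher and 0 lower (6 higher without triple mutant 3). Of 8 muscle markers 0 were called in either comparison.

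cyp-35B1 had 9.70, 9.48, 9.13 and 9.40 in the htz-1 double mutant, against 6.15, 6.09, 5.97 and 5.08 in htz-1 animals. The groups were separate, and the difference was 3.61 ± 0.61 (adjusted p = 0.000136). In the triple mutant cyp-35B1 had 4.03, 3.03, 7.81 and 4.06. Replicate 3 lay above all htz-1 libraries and below all htz-1 double mutant libraries. The difference from the htz-1 double mutant was -4.69 (adjusted p = 2.95e-06), and -5.72 (adjusted p = 2.34e-11) without that replicate. cyp-13A11 had 1.98, 2.39, 8.07 and 2.15 in the triple mutant, against 8.94, 8.71, 8.91 and 8.98 in the htz-1 double mutant. Again replicate 3 alone was high, and the difference was -5.24 (adjusted p = 2.09e-05), or -6.71 (adjusted p = 1.59e-13) without it. cyp-13A11 had 7.45, 6.72, 6.72 and 6.94 in htz-1 animals, all below the htz-1 double mutant libraries. The difference between the htz-1 double mutant and htz-1 animals, 1.93, did not pass the test with 1 spread for all 6 genotypes (adjusted p = 0.0911), and passed it when only the groups compared were fitted (adjusted p = 1.6e-06). The SD of cyp-13A11 was 2.96 in the triple mutant and 0.12 to 0.56 in the other genotypes.

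Other genes that rose in the htz-1 double mutant over htz-1 animals were cyp-33C2 (2.60, adjusted p = 7.54e-06), cyp-33D1 (2.58, adjusted p = 6.44e-05), cyp-34A9 (2.31, adjusted p = 0.00091), cyp-34A10 (2.19, adjusted p = 0.00125) and cyp-34A5 (2.13, adjusted p = 0.000444), none with overlap. The mean of cyp-34A10 over all libraries was 3.02, just over the filter of 3. It passed only through the htz-1 double mutant, with a mean of 6.26 there and 1.37 to 4.07 in the other genotypes. cyp-35B2, with a mean of 3.13 and of 4.32 in the htz-1 double mutant, passed in the same way. cyp-34A9 reached 11.31, 11.36, 11.36 and 11.37 in the htz-1 double mutant, against 9.50, 8.93, 9.26 and 8.47 in htz-1 animals, a narrow band above all other libraries. In the triple mutant cyp-34A9 had 7.69, 8.16, 10.10 and 8.16 and was lower than in the htz-1 double mutant (-2.82, adjusted p = 6.31e-05), or -3.35 without replicate 3. cyp-34A10 was lower in the triple mutant (-4.05, adjusted p = 4.56e-07), as were cyp-33C2 (-2.57, adjusted p = 5.06e-06), cyp-14A1 (-2.44, adjusted p = 2.27e-07) and cyp-33D1 (-2.38, adjusted p = 9.28e-05). cyp-13A2 had 4.23, 4.71, 4.39 and 4.15 in the htz-1 double mutant, against 5.97 to 7.45 in htz-1 animals (-2.15 ± 0.30, adjusted p = 1.17e-05). It had 6.60 to 7.42 in the triple mutant, again above the htz-1 double mutant without overlap (2.62 ± 0.30, adjusted p = 5.06e-07).

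The daf-2 comparisons with and without htz-1(bon101) share no library. 5 genes were higher in both, or 8.20% of the tested members, where 2.09% of all genes were: cyp-33D1, cyp-34A5, cyp-34A8, cyp-34A9 and cyp-35B1. They are 23.8% of those higher in the htz-1 double mutant and 31.2% of those higher in daf-2 animals. cyp-13A2 alone was lower in both, as were 1.46% of all genes, and cyp-13A5 was higher in the htz-1 double mutant (1.11, adjusted p = 0.0131) and lower in daf-2 animals. The call of cyp-34A8 in daf-2 animals (0.92, adjusted p = 0.0233) ended when daf-2 replicate 2 or 3 or wt replicate 1 was left out.

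The daf-16 comparisons, triple mutant against htz-1 double mutant and daf-16 double mutant against daf-2 animals, also share no library. In both, 9 genes were lower, or 14.8% of the tested members, where 3.60% of all genes were. They are 39.1% and 56.2% of the 2 lists: cyp-13A11, cyp-14A1, cyp-29A2, cyp-33D1, cyp-34A5, cyp-34A6, cyp-34A8, cyp-34A9 and cyp-35B1. Without triple mutant 3 there were 11, with cyp-14A2 and cyp-14A4 added, where 3.75% of all genes were. cyp-13A2 alone was higher in both, as were 3.52% of all genes. cyp-14A5 was lower in the triple mutant (-0.79, adjusted p = 0.0148) and higher in the daf-16 double mutant, and the first of these calls ended without triple mutant 3 (-0.64, adjusted p = 0.0568). The call of cyp-34A6 in the daf-16 double mutant (-0.81, adjusted p = 0.0477) ended when any 1 of the 8 libraries compared was left out, and that of cyp-29A2 in the triple mutant (-0.69, adjusted p = 0.0254) without htz-1 double mutant replicate 3 or 4 or triple mutant replicate 1, 2 or 4.

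**Figure D3:**
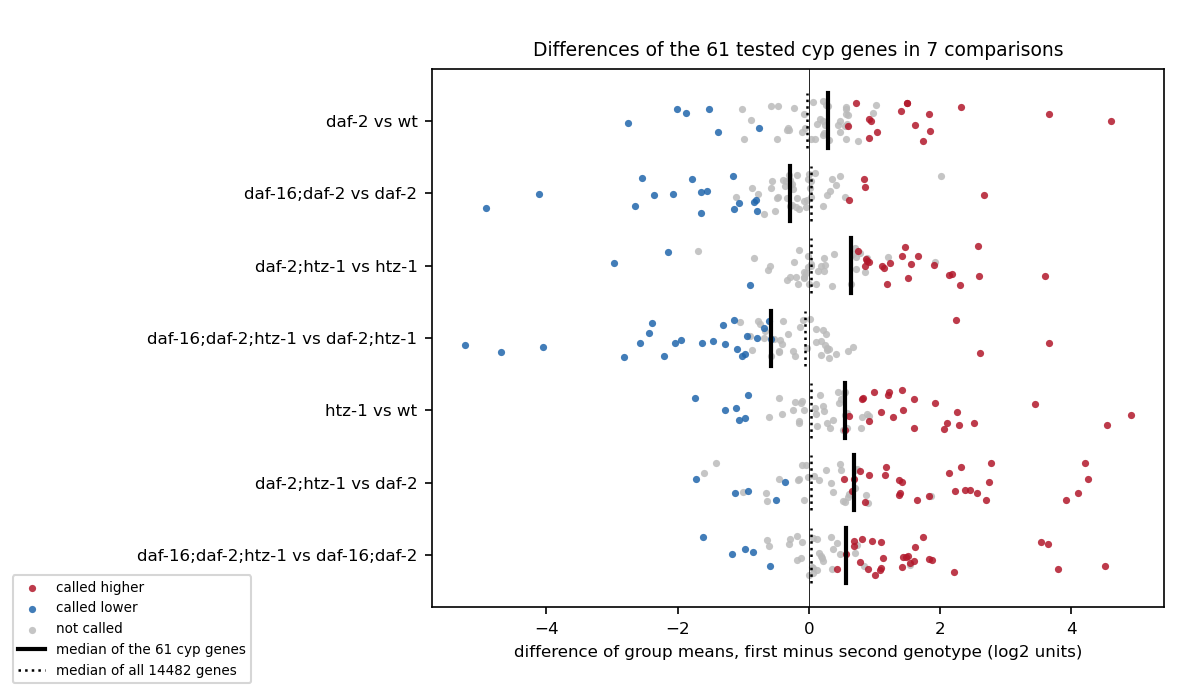
Differences in log2 units (horizontal axis) of the 61 tested P450 genes in the 7 pairwise comparisons (vertical axis), with points coloured by call, a thick line at the median of the 61 genes and a dotted line at the median of all 14482 genes tested. The member median lies above 0 in the daf-2 and htz-1 comparisons, up to 0.69, and below 0 in both daf-16 comparisons, at -0.29 and -0.57.

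The htz-1 comparisons ask what the H2A.Z mutation changes in each background, and the 3 of them share no library. In htz-1 animals 23 of the 61 genes were higher than in wt and 6 lower, or 37.7% and 9.84%, where over all genes 26.4% were called higher, 24.5% lower and 51.0% either way. In the htz-1 double mutant 27 were higher than in daf-2 animals and 5 lower, or 44.3% and 8.20%, where over all genes 20.4% were called higher, 20.1% lower and 40.5% either way. In the triple mutant 28 were higher than in the daf-16 double mutant and 5 lower, or 45.9% and 8.20%, where over all genes 24.1% were called higher, 24.3% lower and 48.3% either way. Without triple mutant 3 these last counts were 22 and 6. The median differences over the members were 0.55, 0.69 and 0.57 in the same order, and between 0.03 and 0.04 over all genes.

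In all 3 backgrounds 12 genes were higher with htz-1(bon101), or 19.7% of the tested members, where 10.1% of all genes were: cyp-13A5, cyp-13A7, cyp-14A1, cyp-14A5, cyp-25A3, cyp-29A4, cyp-32A1, cyp-33D3, cyp-34A2, cyp-34A9, cyp-35B1 and cyp-42A1. Without triple mutant 3 there were 9, or 14.8% against 9.62% of all genes, as cyp-25A3, cyp-32A1 and cyp-35B1 dropped out. In the triple mutant the call of cyp-33D3 also ended without triple mutant replicate 2 or daf-16 double mutant replicate 2 or 4. Those of cyp-25A3 and cyp-32A1 also ended without triple mutant replicate 1 or daf-16 double mutant replicate 1 or 2, among others, and that of cyp-32A1 in the htz-1 double mutant ended without daf-2 replicate 1. cyp-13A2 and cyp-35C1 were lower in all 3, which is 3.28% of the members, where 13.5% of all genes were. In at least 1 background 41 genes were higher and 10 were lower, or 67.2% and 16.4%, where over all genes 38.4% were higher and 33.3% lower. 3 genes, or 4.92%, were called in opposite directions in different backgrounds (cyp-13A12, cyp-13B2 and cyp-14A4), as were 1.46% of all genes. Of these, cyp-14A4 lost its lower call in htz-1 animals without htz-1 replicate 2 or wt replicate 3 or 4. cyp-13B2 lost its lower call in the htz-1 double mutant without daf-2 replicate 1 or htz-1 double mutant replicate 4, and its higher call in the triple mutant without triple mutant replicate 3 or daf-16 double mutant replicate 3 or 4.

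cyp-29A4 showed the largest difference between htz-1 animals and wt. It had 8.45, 8.72, 7.96 and 8.60 in htz-1 animals, against 2.31 to 4.66 in wt (4.91 ± 0.36, adjusted p = 1.01e-10). It had 8.37, 7.52, 8.36 and 7.72 in the triple mutant, against 3.64, 3.42, 2.93 and 3.95 in the daf-16 double mutant (4.51 ± 0.36, adjusted p = 1.97e-10). In the htz-1 double mutant it had 7.92, 8.09, 8.55 and 8.36, against 5.57 to 6.29 in daf-2 animals (2.38 ± 0.36, adjusted p = 1.14e-05). All 12 libraries with htz-1(bon101) thus lay above all 12 libraries without it, and among the libraries without it the daf-2 ones were the highest. The level of cyp-14A5, a neighbour of no other member, was 12.97, 13.12, 13.31 and 12.62 in htz-1 animals, against 9.94, 11.19, 10.63 and 11.10 in wt, without overlap (2.29, adjusted p = 2.16e-08). Its difference was 2.78 (adjusted p = 4.37e-09) between the htz-1 double mutant and daf-2 animals and 1.13 (adjusted p = 0.000361) between the triple mutant and the daf-16 double mutant.

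cyp-13A5 and cyp-13A7 are neighbours in the run on chromosome II, and cyp-13A7 is known to be induced by rifampicin. cyp-13A5 had 9.64, 9.60, 9.51 and 9.27 in the htz-1 double mutant, against 5.44, 5.85, 5.46 and 4.86 in daf-2 animals (4.10, adjusted p = 7.11e-10). cyp-13A7 had 6.69 to 7.39 in the htz-1 double mutant, against 3.34, 3.41, 2.35 and 2.03 in daf-2 animals (4.26, adjusted p = 1.88e-08). Neither gene's groups overlapped. Against wt, htz-1 animals were higher by 1.60 (adjusted p = 0.000131) in cyp-13A5 and by 2.26 (adjusted p = 4.27e-05) in cyp-13A7. Against the daf-16 double mutant, the triple mutant was higher by 3.80 (adjusted p = 3.26e-10) in cyp-13A5 and by 3.55 (adjusted p = 5.74e-08) in cyp-13A7.

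Of the 5 genes of the chromosome V run that rose in daf-2 animals, cyp-34A9 and cyp-35B1 were higher with htz-1(bon101) in all 3 backgrounds and cyp-34A5 in 2 of them (1.40, adjusted p = 0.00711, in the htz-1 double mutant and 1.83, adjusted p = 0.000478, in the triple mutant, or 1.36 without triple mutant 3). cyp-34A6 and cyp-34A8 were called in none, and without triple mutant 3 cyp-34A8 was lower in the triple mutant than in the daf-16 double mutant (-1.06, adjusted p = 2.36e-05). cyp-34A9 was higher by 3.45 (adjusted p = 1.02e-06) in htz-1 animals over wt, by 3.92 (adjusted p = 5.14e-07) in the htz-1 double mutant over daf-2 animals and by 3.65 (adjusted p = 4.05e-07) in the triple mutant over the daf-16 double mutant. For cyp-35B1 the same differences were 2.52 (adjusted p = 0.00121), 2.46 (adjusted p = 0.00221) and 1.88 (adjusted p = 0.0128), and the last was 0.85 (adjusted p = 0.0544) without triple mutant 3. cyp-34A10, which was not called between daf-2 animals and wt, was higher in the htz-1 double mutant, at 6.13, 6.21, 6.28 and 6.41 against 3.05, 1.12, 1.89 and 2.13 in daf-2 animals (4.21, adjusted p = 1.37e-07). These same htz-1 double mutant values brought it over the filter, as given above. cyp-13A11 was higher in htz-1 animals than in wt by 4.55 (adjusted p = 3.25e-05), without overlap. Its difference between the triple mutant and the daf-16 double mutant was 1.55, and 0.07 without triple mutant 3, and neither passed the test.

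cyp-35C1, a gene of the xenobiotic-inducible family 35, fell with htz-1(bon101) in each background. It had 8.12, 7.31, 8.06 and 8.06 in htz-1 animals, against 10.82, 9.24, 8.36 and 8.24 in wt (-1.28, adjusted p = 0.0342), and this call ended when htz-1 replicate 2, wt replicate 1 or wt replicate 2 was left out. Within batches 1 to 4 it was -2.70, -1.93, -0.30 and -0.18, so the fall lay mostly in batches 1 and 2. The difference was -1.72 (adjusted p = 0.00724) between the htz-1 double mutant and daf-2 animals and -1.62 (adjusted p = 0.00889) between the triple mutant and the daf-16 double mutant, where the groups overlapped. The first of these was -2.28, -2.96, -1.22 and -0.42 within batches 1 to 4. In the second, the triple mutant had 7.75, 8.32, 9.07 and 7.81, against 10.62, 10.15, 8.83 and 9.82 in the daf-16 double mutant. The triple mutant was thus higher in batch 3, and without triple mutant 3 the difference was -1.90 (adjusted p = 0.00432). cyp-13A2 fell to values of 5.97 to 7.45 in htz-1 animals, against 7.91 to 8.61 in wt (-1.74, adjusted p = 2.81e-05). Its other differences were -1.12 (adjusted p = 0.00395) in the htz-1 double mutant and -1.17 (adjusted p = 0.00207) in the triple mutant. cyp-33C9 (-0.98, adjusted p = 0.000489) and cyp-33E1 (-0.92, adjusted p = 0.0396) were lower in htz-1 animals than in wt, and the second call ended without htz-1 replicate 2, 3 or 4 or wt replicate 2 or 4.

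Whether the htz-1 difference itself depends on the background was tested as an interaction. Between daf-2 and wild-type backgrounds, the htz-1 difference was larger or more positive in daf-2 for 12 of 61 genes and smaller or more negative for 3, or 19.7% and 4.92%. Over all genes 7.78% were called higher, 5.57% lower and 13.3% either way. The leading genes were cyp-13A5 (2.50, adjusted p = 0.000559), cyp-33C2 (2.38, adjusted p = 0.00219), cyp-34A10 (2.29, adjusted p = 0.02) and cyp-33C8 (2.24, adjusted p = 0.00879). Of these, cyp-34A10 was tested only because its htz-1 double mutant values brought it over the filter. cyp-33C2 had 7.25, 7.75, 7.30 and 7.58 in the htz-1 double mutant, against 4.52 to 5.05 in daf-2 animals, while it had 4.54 to 5.29 in htz-1 animals, against 3.66 to 5.36 in wt. It was thus higher with htz-1(bon101) in the daf-2 background (2.70, adjusted p = 1.45e-06), and its groups overlapped in the wild-type background. In the other direction were cyp-29A4 (-2.52, adjusted p = 0.00174), cyp-25A1 (-2.08, adjusted p = 0.00109) and cyp-13B2 (-1.46, adjusted p = 0.0244). The last of these calls ended when any 1 of daf-2 replicate 1, htz-1 replicate 1, htz-1 double mutant replicate 4 or wt replicate 3 or 4 was left out. cyp-25A1 had 9.25, 9.26, 8.81 and 9.18 in the htz-1 double mutant, against 9.29 to 9.98 in daf-2 animals, whereas it had 9.31 to 9.70 in htz-1 animals, against 7.58 to 8.45 in wt.

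Between the daf-16 double mutant and daf-2 backgrounds, the htz-1 difference was more positive in the daf-16 double mutant for 6 genes and more negative for 10, or 9.84% and 16.4%. Over all genes 10% were called more positive, 16.5% more negative and 26.5% either way. The members' shares thus lie close to those of all genes. With each library centred on its median, which shifted the median of all genes by 0.28 in this comparison, the split was 8 more positive and 7 more negative. Without triple mutant 3 it was 7 and 13. The most negative were cyp-34A10 (-3.37, adjusted p = 0.000592), cyp-33C2 (-2.23, adjusted p = 0.00187), cyp-33C7 (-2.02, adjusted p = 0.00444) and cyp-14A5 (-1.65, adjusted p = 0.00109). Here too cyp-34A10 was over the filter only through the htz-1 double mutant. cyp-33C7 had 7.37, 6.54, 7.39 and 6.18 in the triple mutant, against 5.79 to 6.78 in the daf-16 double mutant, while it had 8.61 to 9.31 in the htz-1 double mutant, against 5.73 to 6.65 in daf-2 animals. The most positive were cyp-29A4 (2.12, adjusted p = 0.00338), cyp-25A1 (2.06, adjusted p = 0.000598), cyp-13B2 (1.73, adjusted p = 0.0045) and cyp-13A3 (1.43, adjusted p = 0.01). Both interactions use the daf-2 and htz-1 double mutant libraries. cyp-13A11 (-1.79, adjusted p = 0.00425), cyp-34A8 (-1.21, adjusted p = 0.000952) and cyp-35B1 (-1.61, adjusted p = 0.018) passed the second interaction test only without triple mutant 3.

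Counts by family show where the calls lay. Over all genes 20.4% were called higher in the htz-1 double mutant over daf-2 animals and 11.5% over htz-1 animals. In the triple mutant 17.4% of all genes were lower than in the htz-1 double mutant and 24.1% higher than in the daf-16 double mutant. In family 33, 8 of 13 tested genes were higher and 0 lower in the htz-1 double mutant over daf-2 animals, 7 were higher in the htz-1 double mutant over htz-1 animals, and 9 were lower in the triple mutant than in the htz-1 double mutant, with or without replicate 3. The call of cyp-33C5 over htz-1 animals ended without htz-1 replicate 1 or 4 or htz-1 double mutant replicate 1 or 2. Those of cyp-33A1 and cyp-33E3 in the triple mutant ended without triple mutant replicate 4. The latter also ended without triple mutant replicate 2 or htz-1 double mutant replicate 3. In family 34, all 6 tested genes were lower in the triple mutant than in the htz-1 double mutant, again with or without replicate 3, and 5 of 6 were higher in the htz-1 double mutant than in htz-1 animals. Of these, cyp-34A2 lost its first call without htz-1 double mutant replicate 1 or triple mutant replicate 2, and cyp-34A6 without htz-1 double mutant replicate 3 or triple mutant replicate 4. The second call of cyp-34A2 ended without htz-1 replicate 4 or htz-1 double mutant replicate 1. In family 13, 10 of 12 tested genes were higher and 1 lower in the triple mutant over the daf-16 double mutant, and 8 were higher without replicate 3. The higher calls of cyp-13A1, cyp-13A3, cyp-13A10, cyp-13B1 and cyp-13B2 there each ended when some single library of these genotypes was left out. In family 14 the same comparison had 4 of 4 higher, also without replicate 3.

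Neighbours in a run did not all move alike. In the run of families 34A and 35, 5 of 8 tested genes were higher in daf-2 animals than in wt, 5 were lower in the daf-16 double mutant than in daf-2 animals and 6 were lower in the triple mutant than in the htz-1 double mutant. Of all genes 6.43% were higher in the first of these comparisons, 9.65% lower in the second and 17.4% lower in the third. cyp-35A5 at its edge was called in none of the 7 comparisons. In the cyp-13A run, cyp-13A2 was lower in all 3 htz-1 comparisons while cyp-13A5 and cyp-13A7 were higher in all 3. cyp-13A11 and cyp-13A12 lie side by side on chromosome III and were called in opposite directions both in daf-2 animals against wt and in htz-1 animals against wt. The call of cyp-13A12 in htz-1 animals (-1.11, adjusted p = 0.0123) ended without wt replicate 2. In the cyp-14A run, cyp-14A1, cyp-14A2 and cyp-14A4 were all lower in the daf-16 double mutant than in daf-2 animals (-2.08, -1.55 and -1.13), where the call of cyp-14A4 ended without daf-2 replicate 1 or daf-16 double mutant replicate 2. All 3 were higher in the triple mutant than in the daf-16 double mutant (2.21, 1.54 and 1.51).

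**Figure D4:**
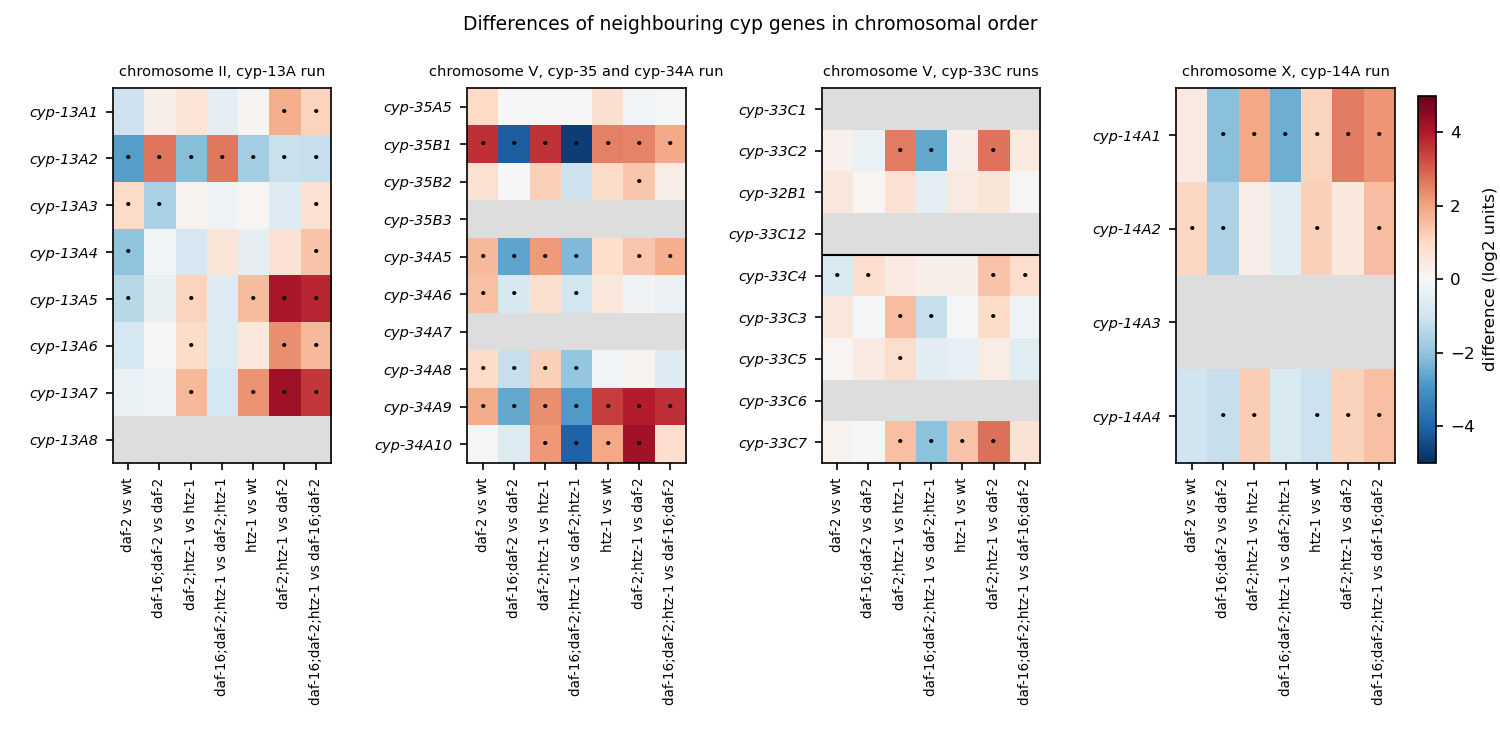
Differences in log2 units (colour) of P450 genes in their order along 4 stretches of the genome (rows: the cyp-13A run on II, the cyp-35 and cyp-34A run on V, the cyp-33C runs on V and the cyp-14A run on X) in the 7 pairwise comparisons (columns), with a dot where a gene was called and grey where it was not tested. Most of the cyp-34A genes share a colour in both daf-16 comparisons, while cyp-13A2 stands against cyp-13A5 and cyp-13A7 in its run.

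Members with known roles outside detoxification are described next. cyp-31A2 and cyp-31A3, which are needed for the lipid barrier of the eggshell and are so alike that reads may be shared, stayed between 9.95 and 10.69 and between 9.51 and 10.32 in all 24 libraries. cyp-31A2 was higher in the triple mutant than in the daf-16 double mutant (0.43, adjusted p = 0.0134), a call that ended without triple mutant replicate 2. cyp-31A3 was lower in the htz-1 double mutant than in daf-2 animals (-0.36, adjusted p = 0.0459), a call that ended when daf-2 replicate 1, 3 or 4 or htz-1 double mutant replicate 1, 3 or 4 was left out. cyp-44A1, of the mitochondrial type, was called in none of the 7 comparisons, with differences from -0.29 to 0.22. It overlaps npp-24 on the same strand. cyp-36A1, which acts downstream of the hypoxia factor HIF-1 in control of gene expression and behaviour, was higher in the htz-1 double mutant than in htz-1 animals (0.75, adjusted p = 0.00974) and was called in no other pairwise comparison. It overlaps figo-1 on the opposite strand, and cyp-37A1 and cyp-37B1 overlap coding genes in the same way.

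The eicosanoid-forming enzymes cyp-33E2 and cyp-29A3, which oxidise polyunsaturated fatty acids, were both highest in the htz-1 double mutant. cyp-33E2 had 8.72, 8.61, 9.08 and 9.05 there, against 7.02 to 7.57 in htz-1 animals (1.46, adjusted p = 0.000196) and 7.01 to 8.37 in daf-2 animals (1.38, adjusted p = 0.000124). The htz-1 double mutant lay above both groups without overlap. It had 7.32 to 7.92 in the triple mutant, lower than the htz-1 double mutant (-1.27, adjusted p = 0.000477). For cyp-29A3 the differences of the htz-1 double mutant were 0.89 (adjusted p = 0.00273) from htz-1 animals and 0.78 (adjusted p = 0.0035) from daf-2 animals, and the triple mutant was lower (-1.30, adjusted p = 3.2e-05). cyp-42A1 was higher with htz-1(bon101) in each background, by 1.60 over wt, 0.86 over daf-2 animals (adjusted p = 0.0285) and 1.48 over the daf-16 double mutant. The call over daf-2 animals ended without daf-2 replicate 4 or htz-1 double mutant replicate 1, 2 or 4.

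In the xenobiotic-inducible family 35, the libraries of 1 genotype differed widely between batches. cyp-35A3 had 7.54, 7.42, 3.43 and 4.84 in daf-2 animals, against 8.58, 7.48, 3.73 and 5.73 in wt, so both were low in batches 3 and 4. It had 4.21, 3.57, 3.84 and 5.22 in the htz-1 double mutant, against 7.26, 6.80, 6.97 and 7.70 in htz-1 animals, and 7.95, 8.14, 7.91 and 7.52 in the triple mutant. The htz-1 double mutant was thus below both other htz-1 genotypes without overlap. Its differences from htz-1 animals were -3.05, -3.23, -3.13 and -2.48 within batches 1 to 4 (-2.97 ± 0.82, adjusted p = 0.0119). The triple mutant was above the htz-1 double mutant by 3.74, 4.57, 4.07 and 2.30 within batches (3.67 ± 0.82, adjusted p = 0.00148). cyp-35A4, its neighbour, was above by 2.81, 2.41, 2.43 and 1.34 (2.25, adjusted p = 0.0123).

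Between the daf-16 double mutant and daf-2 animals, cyp-35A3 differed by 1.08, 1.23, 2.83 and 2.96 within batches. The mean difference of 2.02 did not pass the test (adjusted p = 0.0719) and passed it with the batch as a replicate block (adjusted p = 0.0288). In the same way, cyp-35A4 in the htz-1 double mutant against htz-1 animals (-1.69) had an adjusted p of 0.0768, and 0.0445 with the replicate block. The htz-1 difference of cyp-35A3 did not have 1 direction. It was -1.32, -0.68, 3.24 and 1.97 within batches between htz-1 animals and wt, and -3.34, -3.85, 0.42 and 0.38 between the htz-1 double mutant and daf-2 animals. Neither passed the test. cyp-35D1, which hydroxylates the drug thiabendazole, was called in none of the 7 comparisons and ranged from 3.59 to 6.53 in wt.

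**Figure D5:**
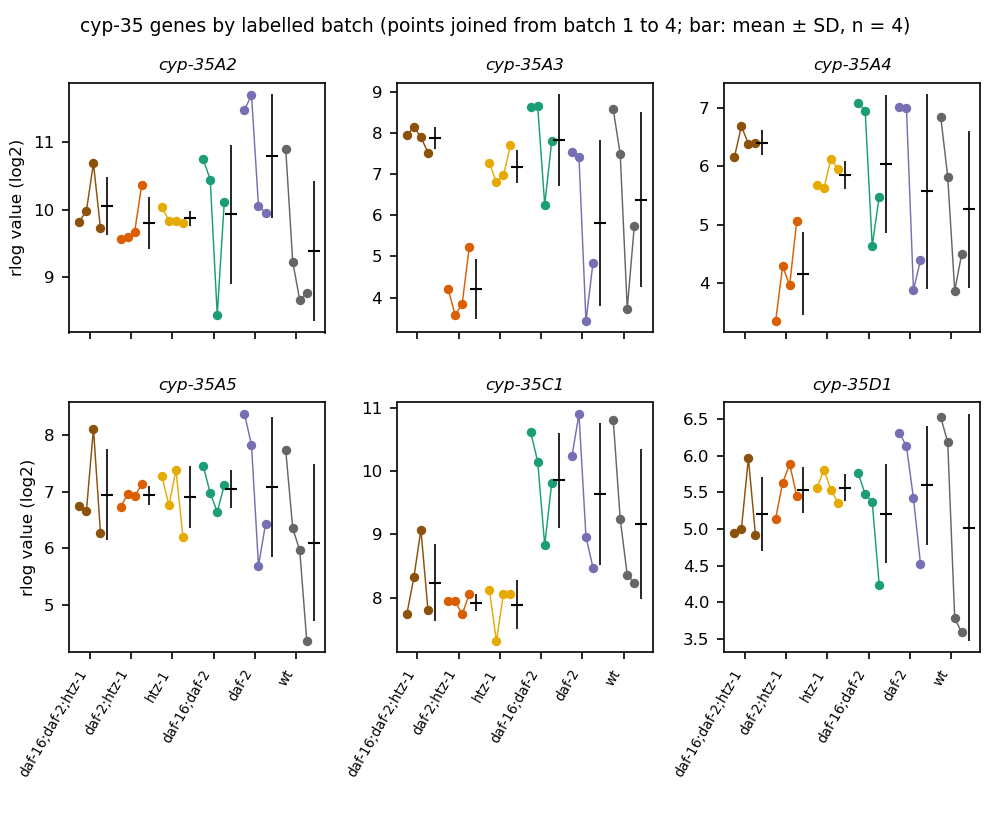
rlog values (log2 scale, vertical axis) of 6 genes of family 35 in every library, by genotype, with lines joining the 4 libraries of a genotype in the order of their batches and bars at the mean ± SD (n = 4). Within daf-2 and wt, cyp-35A3 and cyp-35A4 are higher in batches 1 and 2 than in batches 3 and 4, while the 4 daf-16;daf-2;htz-1 libraries of cyp-35A3 stay between 7.52 and 8.14.

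The 13 genes below the filter were fitted only in the alternative without a filter, and their values may be affected by the pull of rlog on low genes. In that fit 5 of 13 were higher in the htz-1 double mutant than in daf-2 animals, and 4 were lower and 2 higher in the triple mutant than in the htz-1 double mutant. Among all 7207 genes below the filter, 13.2% were higher in the first of these comparisons, and 6.99% were lower and 6.95% higher in the second. cyp-33C1 had 3.67, 4.31, 4.48 and 3.98 in the htz-1 double mutant, against 1.26 to 1.79 in daf-2 animals (2.68, adjusted p = 1.26e-06). cyp-34A7 had 5.50 ± 0.46 (SD, n = 4) in the htz-1 double mutant, against 1.91 to 3.31 in daf-2 animals (2.93, adjusted p = 2.48e-05). cyp-33B1 had 2.45 to 3.11 in the htz-1 double mutant, against 0.60 to 1.40 in daf-2 animals (1.60, adjusted p = 4.98e-06). All 3 were lower in the triple mutant than in the htz-1 double mutant (-2.79, -2.67 and -1.99). cyp-34A1 was instead higher in htz-1 animals than in wt (2.37, adjusted p = 2.63e-05) and lower in the htz-1 double mutant than in htz-1 animals (-1.67, adjusted p = 0.00421). cyp-35A1 was at 0.82 to 2.55 in all libraries. A further 5 rows with P450 names are annotated as pseudogenes and are no members, and of these cyp-31A1 had the highest mean, at 6.69.

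Genes that work with P450 enzymes were described from fixed lists. emb-8, the NADPH-P450 reductase that supplies electrons to the microsomal enzymes, was called in none of the 7 comparisons, with differences from -0.20 to 0.21. vem-1, a membrane-associated progesterone receptor homologue with a cytochrome b5-like domain, was higher with htz-1(bon101) in all 3 backgrounds, by 1.16 over wt, 1.45 over daf-2 animals and 1.14 over the daf-16 double mutant. Among 9 electron donor and haem genes, htz-1 animals against wt had 3 called higher and 3 lower, and so had the htz-1 double mutant against daf-2 animals. The triple mutant against the daf-16 double mutant had 2 higher and 0 lower. So 6, 6 and 2 of the 9 were called, beside 51.0%, 40.5% and 48.3% of all genes called either way. daf-9, the P450 gene that makes dafachronic acids and bears no cyp- symbol, was lower in htz-1 animals than in wt (-1.24, adjusted p = 0.00803) and in the triple mutant than in the daf-16 double mutant (-1.66, adjusted p = 0.000712).

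For 14 regulators of detoxification genes, 0 passed the limma test in daf-2 animals against wt, where 12.4% of all genes were called either way. In htz-1 animals against wt 2 were called higher and 6 lower, where 51.0% of all genes were called either way. Higher and lower were 3 and 1 in the htz-1 double mutant against daf-2 animals, and 3 and 2 in the triple mutant against the daf-16 double mutant, or 4 and 3 without triple mutant 3. Of all genes 40.5% and 48.3% were called either way in these comparisons with all libraries. The xenobiotic receptor gene nhr-8 was lower in htz-1 animals (-1.32, adjusted p = 0.000861) and in the triple mutant against the daf-16 double mutant (-1.31, adjusted p = 0.00101). The Mediator subunit gene mdt-15, a coactivator of detoxification and fat genes, was lower in htz-1 animals than in wt (-0.89, adjusted p = 0.00315) and in the htz-1 double mutant than in daf-2 animals (-0.65, adjusted p = 0.033). Of 13 P-glycoprotein genes, which encode efflux pumps, 3 were lower and 0 higher in daf-2 animals than in wt. In the daf-16 double mutant 6 were higher and 0 lower than in daf-2 animals. Beside these, 12.4% and 25.7% of all genes were called either way in the same order. The called intestinal markers went the same ways, as given above, and whether they are related to these counts was not tested. pgp-5 fell by 1.93 in daf-2 animals (adjusted p = 0.00059) and was 4.53 higher in the daf-16 double mutant than in daf-2 animals (adjusted p = 3.13e-09). Of 4 tested flavin monooxygenase genes, which oxidise foreign compounds by another chemistry, 0 passed the test in daf-2 animals against wt, and 2 were higher and 1 lower in htz-1 animals than in wt. The shares of all genes called either way were 12.4% and 51.0% there.

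Marker genes of other tissues moved with htz-1(bon101). All 20 sperm genes were lower in all 3 htz-1 comparisons, and the mean of the list was at 8.65 to 9.07 in htz-1 animals, against 12.23 or more in wt. Of 13 intestinal markers 8 were lower and 1 higher in htz-1 animals than in wt, 5 were lower and 4 higher in the htz-1 double mutant than in daf-2 animals, and 7 were lower and 0 higher in the triple mutant than in the daf-16 double mutant. Of 12 hypodermal markers 2 were higher and 7 lower in htz-1 animals, 0 were higher and 7 lower in the htz-1 double mutant, and 3 were higher and 5 lower in the triple mutant, each against the same background without htz-1(bon101). Of 9 tested embryo markers 5, 2 and 4 were higher and 0 lower in the same order. Of 16 oocyte and germline markers 5 were higher and 1 lower in the triple mutant (9 and 1 without triple mutant 3), with at most 1 in either direction in the others, and of 8 muscle markers at most 2 were called in each direction in any of the 3. Over all genes 51.0%, 40.5% and 48.3% were called either way in these comparisons. The part of these shifts in the P450 differences was not tested.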

How the data were processed

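Whole-animal RNA was sequenced with an unstranded SMART-Seq2 protocol, per the labels' protocols. The deposited table holds rlog values on the log2 scale, from -2.01 to 19.7, per the file headers and values. The submitters' processing notes name bcl2fastq 2.20, kallisto 048.0 and the build WBcel235, and the tool that made the rlog values is not stated there. Depth is therefore unknown, and no counting interval can be given.

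Symbols, positions and lengths came from WormBase names and Ensembl release 115, which gave a symbol to 20315 of 21689 identifiers. limma 3.58.1 in R 4.3.3 was fitted with a mean-variance trend to all 24 libraries in 6 groups (18 residual degrees of freedom), over 14482 genes with a mean of at least 3. There were 7 pairwise comparisons and 2 interactions, with Benjamini-Hochberg adjustment over all genes tested in each comparison and a threshold of 0.05. The fitting code was tested on simulated data. Nothing in the labels says that libraries of a genotype came from separate cultures, so the p-values reflect only how these libraries vary, which may be technical.

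The members, gene lists and tests were chosen with earlier results of these data known. Genes named in the text are members with known roles, the 6 largest called differences with groups that do not overlap in each pairwise comparison and the 4 largest in either direction in each interaction. Others were named after their values were seen, where a small count or an overlap of calls is spelled out. Replicate numbers pair the libraries because the labels give them as batches. Deviations from the group means correlated at 0.050 on average within a batch (-0.301 to 0.513) and at -0.016 between batches.

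Alternatives were the batch as a replicate block, no filter, a higher filter (mean of at least 5), libraries centred on their medians, quantile-normalized values, only the groups compared, leaving out each library in turn, and leaving out wt replicate 1 with daf-2 replicate 1.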

Additional observations from a re-analysis of the deposited data

Results flagged for a closer look

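In 14 of 252 groups of 4 libraries, which is 5.56% over 42 members, 1 library lay far from the other 3 by Dixon's criterion, and chance gives about 1 in 20. The library labelled triple mutant replicate 3 was the high one for 5 genes. It was at 8.07 in cyp-13A11 (median of the other 3, 2.15), 7.48 in cyp-14A2 (6.09), 4.46 in cyp-33D1 (3.03), 6.47 in cyp-34A5 (4.66) and 5.97 in cyp-35D1 (4.95). Its values of mtl-1 and sod-3 were high as well, as given above, and their part was not tested.

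The other 9 were single libraries of several genotypes. In the htz-1 double mutant these were cyp-14A4 at 4.97 in replicate 2 (median of the others, 5.38), cyp-34A9 at 11.31 in replicate 1 (11.36) and cyp-35A2 at 10.37 in replicate 4 (9.59). In htz-1 animals they were cyp-33E2 at 7.02 in replicate 2 (7.54), cyp-35A2 at 10.04 in replicate 1 (9.82), cyp-35B1 at 5.08 in replicate 4 (6.09) and cyp-35C1 at 7.31 in replicate 2 (8.06). Further ones were cyp-25A1 at 9.29 in daf-2 replicate 4 (9.90) and cyp-33C8 at 8.08 in wt replicate 1 (10.73).

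The htz-1 difference itself differed between backgrounds, by an interaction term in limma, for the genes named in the report. Between the daf-2 and wild-type backgrounds the interaction was 2.50 for cyp-13A5, 2.38 for cyp-33C2, 2.29 for cyp-34A10, 2.24 for cyp-33C8, -2.52 for cyp-29A4, -2.08 for cyp-25A1 and -1.46 for cyp-13B2. Between the daf-16 double mutant and daf-2 backgrounds it was 2.12 for cyp-29A4, 2.06 for cyp-25A1, 1.73 for cyp-13B2, 1.43 for cyp-13A3, -3.37 for cyp-34A10, -2.23 for cyp-33C2, -2.02 for cyp-33C7 and -1.65 for cyp-14A5.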

How the results depend on the processing

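Of 217 calls of members in the 9 comparisons, 155 held under every alternative and left-out library that gave a value for them, 62 ended under at least 1, and 0 changed direction. A minimum mean of 5 gave no value for 41 of the calls, leaving out wt replicate 1 with daf-2 replicate 1, which was not run for comparisons without these genotypes, gave none for 83, and the other 5 alternatives gave one for all 217. A library was left out only for the comparisons that contain its genotype. Leaving out some single library ended 58, using only the groups compared 20, leaving out wt replicate 1 with daf-2 replicate 1 13, centring 10, quantile normalization 9, no filter 8, the replicate block 1 and a minimum mean of 5 ended 0 of those it could test. Using only the groups compared gave 9 genes higher in daf-2 animals against wt in place of 16. Genes lower in the triple mutant against the daf-16 double mutant numbered 5, but 2 with centring, 2 with quantile normalization and 3 with only the groups compared. Genes lower in the htz-1 double mutant against htz-1 animals numbered 3, but 5 with the replicate block, 6 with quantile normalization and 6 with only the groups compared. Without a filter, 5 genes in place of 3 were higher in the triple mutant against the htz-1 double mutant. In the first interaction, a minimum mean of 5, which leaves fewer genes, gave 7 more positive in place of 12. More negative there were 5 in place of 3 with quantile normalization, with only the groups compared and without wt replicate 1 and daf-2 replicate 1. With 1 library left out, genes called lower ranged from 3 to 6 in htz-1 animals against wt (3 without htz-1 replicate 2 or wt replicate 2), from 3 to 7 in the htz-1 double mutant against daf-2 animals (3 without daf-2 replicate 1 or htz-1 double mutant replicate 4), from 3 to 6 in the triple mutant against the daf-16 double mutant (3 without replicate 2 or 4 of either) and from 2 to 5 in the first interaction (5 without wt replicate 1). Centring shifted the median of all genes by -0.164 in the daf-16 double mutant against daf-2 animals, 0.237 in the triple mutant against the daf-16 double mutant, 0.113 in the triple mutant against the htz-1 double mutant and -0.101 in the first interaction. The causes of these changes were not tested, except where fewer genes were tested. Besides cyp-35A3 and cyp-35A4, the replicate block changed calls of cyp-13A7, cyp-13B2, cyp-29A2, cyp-31A2, cyp-31A5, cyp-34A8, cyp-35B2 and cyp-37A1 in comparisons for which the report gives no value of theirs, and no other call.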
